A study of Mus musculus with 2 samples.

Results

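Claudins and other tight junction proteins were followed in the lungs of mice with and without Pclaf after bleomycin injury. The members were chosen by symbol and comprised 10 of the 31053 genes in the count matrices, namely the claudins Cldn1, Cldn3, Cldn4, Cldn5, Cldn7, Cldn10 and Cldn18, and Ocln, Tjp1 and F11r. All 10 symbols were found in both matrices. Single-cell RNA sequencing libraries, 2 in all, were analysed, 1 per genotype. The library labelled Pclaf WT and the library labelled Pclaf KO (below, the WT and KO libraries) came from lungs of mice aged 8 to 10 weeks, 1 week after bleomycin at 1.35 U/kg. Bleomycin is a DNA-damaging drug that injures the alveolar epithelium, and both groups received it, so no uninjured lung was compared. The KO mice were of an established Pclaf KO line. Lung cells were sorted by antibodies to CD31, CD45 and EpCAM to collect epithelial cells, and 16000 cells were loaded per library. How many mice went into a library is not given in the sources used here. With 1 library per genotype there was no replicate, so no test was made. Intervals in brackets are exact 95% intervals that cover counting error only.

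Tight junctions seal the space between neighbouring epithelial or endothelial cells. Claudins are membrane proteins whose extracellular loops meet across that space, and the claudins a cell makes set how tight the seal is and which ions pass. Occludin and junctional adhesion molecules are further membrane proteins of the junction, and zonula occludens proteins tie them to actin inside the cell. In the alveolus the barrier is formed by flat AT1 cells, by surfactant-making AT2 cells and by the capillary endothelium beneath them.

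The libraries differed in what they held. The WT matrix had 30669 barcodes and the KO matrix 17172, of which 30187 and 15637 were kept, with medians of 2127 and 5957 UMIs (unique molecular identifiers, each counting 1 captured RNA molecule) per kept cell, and 163 barcodes occurred in both. Although both were sorted for epithelium, epithelial classes made up 4.50% of kept WT cells and 69.5% of kept KO cells, and endothelial classes 19.0% and 2.15%. Over all kept cells, the endothelial gene Pecam1, which encodes CD31, stood at 433 CPM in the WT library and 22.7 CPM in the KO library, where CPM is the gene's UMIs scaled to a total of 1000000. The pan-immune gene Ptprc, which encodes CD45, stood at 505 and 18.6 CPM. Pclaf itself was at 39.3 CPM in the WT library and 5.19 CPM in the KO library over all kept cells, but at 164 CPM (22 UMIs) and 146 CPM (240 UMIs) in cycling, PAPC-like epithelial cells. The counts are from the 3′ ends of transcripts and check the deletion only if it removes that end, so genotype is given below as labelled.

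Cells were assigned to classes by clustering and by lists of marker genes that held no member, and the members and the wider tight junction list were also kept out of the genes used for clustering. Of the classes, 10 were epithelial and 5 endothelial. The suffix "-like" marks a name that rests on markers alone, and Lcn2-led cells are an unnamed AT2-related cluster led by Lcn2. Levels are summed UMIs of a class as CPM, so they compare 1 gene between classes but not different genes with each other. A difference between groups of cells is called here when it was at least 2-fold, its counting interval left out equality and both groups together held at least 20 UMIs. For the share of cells with a UMI, each cell with at least 1000 UMIs was thinned to 1000 UMIs. Cells with fewer UMIs were left out of the shares. That kept 77 of 155 WT and 301 of 359 KO AT1-like cells, and 515 of 782 WT aerocyte-like cells. B-, T- and NK-like cells, which do not build tight junctions, serve as a rough comparison for free RNA in each library. Whether they express members themselves, such as F11r, was not tested. The same amount of free RNA also gives more CPM in cells with fewer UMIs.

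Promoters are shown for Cldn4, Cldn5 and Cldn18, whose high levels in Krt8+-like, endothelial and AT1-like cells the comparisons below turn on, and for Cldn3, the neighbour of Cldn4. Each run holds the 250 bases before the annotated start site, 5′ to 3′ on the gene's strand, from RefSeq on the GRCm38.p6 assembly, and capitals mark motif matches on either strand. The 7 motifs searched were AP-1 (TGANTCA), TEAD (GGAATG), GRHL (AACCNGTT), NKX2-1 (CAAGTG), ETS (CCGGAA), the GC box (GGGCGG) and the TATA box (TATAAA).
Cldn4 (chr5:134946935-134947184, minus strand): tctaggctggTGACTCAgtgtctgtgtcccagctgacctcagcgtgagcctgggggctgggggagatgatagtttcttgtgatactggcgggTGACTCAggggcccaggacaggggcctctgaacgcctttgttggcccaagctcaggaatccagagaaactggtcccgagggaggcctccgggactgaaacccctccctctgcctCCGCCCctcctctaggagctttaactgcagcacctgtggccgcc
Cldn3 (chr5:134985964-134986213, plus strand): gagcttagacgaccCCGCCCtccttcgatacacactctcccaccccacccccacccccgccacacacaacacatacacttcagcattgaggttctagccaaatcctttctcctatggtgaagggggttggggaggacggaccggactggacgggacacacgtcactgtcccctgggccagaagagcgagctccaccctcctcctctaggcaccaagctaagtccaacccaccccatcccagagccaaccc
Cldn5 (chr16:18776597-18776846, plus strand): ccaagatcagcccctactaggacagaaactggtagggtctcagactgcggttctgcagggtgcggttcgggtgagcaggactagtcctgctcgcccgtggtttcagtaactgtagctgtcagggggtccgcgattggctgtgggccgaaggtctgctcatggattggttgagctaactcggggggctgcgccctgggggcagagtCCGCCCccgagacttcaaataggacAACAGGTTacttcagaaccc
Cldn18, distal start site (chr9:99717268-99717517, minus strand): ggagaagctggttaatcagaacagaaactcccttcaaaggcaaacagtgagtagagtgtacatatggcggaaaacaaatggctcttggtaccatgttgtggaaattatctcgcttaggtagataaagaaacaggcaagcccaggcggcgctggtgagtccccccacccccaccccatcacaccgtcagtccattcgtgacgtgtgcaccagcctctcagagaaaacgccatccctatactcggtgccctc
Cldn18, proximal start site (chr9:99710064-99710313, minus strand): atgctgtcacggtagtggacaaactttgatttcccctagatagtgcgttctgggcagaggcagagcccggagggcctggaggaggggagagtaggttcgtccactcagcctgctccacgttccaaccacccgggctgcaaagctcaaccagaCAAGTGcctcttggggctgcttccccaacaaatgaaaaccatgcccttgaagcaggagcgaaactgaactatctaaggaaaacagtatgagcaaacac

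The Cldn4 window held 2 AP-1 matches and a GC box. Of 32851 promoter windows of this length, 6.75% held an AP-1 match and 0.338% held at least 2. The Cldn3 window held a GC box, a motif found in 32.7% of windows, and the Cldn5 window a GC box and a GRHL match, found in 1.79%. None of the 7 motifs was in the distal Cldn18 window, and the proximal one held an NKX2-1 match, found in 11.6%. These matches describe letters in a window and were not linked to binding of any factor.

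The positions of the genes are those of GRCm38.p6. Cldn4 (ENSMUSG00000047501, chromosome 5, 134945123 to 134946934, minus strand) and Cldn3 (ENSMUSG00000070473, chromosome 5, 134986214 to 134987476, plus strand) are neighbours 39.3 kb apart. Cldn18 (ENSMUSG00000032473) spans 99690796 to 99717267 of chromosome 9 on the minus strand, and 8869 of its bases are overlapped by the antisense gene Gm16004. Cldn5 (ENSMUSG00000041378) lies at 18776847 to 18778262 of chromosome 16, and Cldn1 (ENSMUSG00000022512) at 26356645 to 26371839 of the same chromosome. Cldn7 (ENSMUSG00000018569) is on chromosome 11 from 69964779 to 69967886 and Cldn10 (ENSMUSG00000022132) on chromosome 14 from 118787871 to 118874525. Ocln (ENSMUSG00000021638) is on chromosome 13 from 100496504 to 100552718, Tjp1 (ENSMUSG00000030516) on chromosome 7 from 65296165 to 65527850 and F11r (ENSMUSG00000038235) on chromosome 1 from 171437561 to 171464593.

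Epithelium and endothelium differed first in their claudins. Cldn3, Cldn4, Cldn7, Cldn10 and Cldn18 were higher in epithelial than in endothelial cells in both libraries, and Cldn5 and Tjp1 were higher in endothelial cells. Ocln and F11r were called in neither direction. Of the 9 members with enough UMIs, 5 were called higher in epithelium and 2 lower in each library. Over all genes, 22.2% were called higher and 19.7% lower in the WT library, and 13.4% and 17.7% in the KO library. The epithelial over endothelial log2 ratio of Cldn3 was 8.61 [7.83 to 9.52] in WT and 5.87 [4.89 to 7.08] in KO, and that of Cldn18 was 4.76 [4.60 to 4.91] and 5.39 [4.71 to 6.17]. Cldn5 stood at -6.00 [-6.22 to -5.79] and -9.99 [-10.21 to -9.79], and Tjp1 at -2.14 [-2.24 to -2.05] and -2.40 [-2.51 to -2.28]. Cldn1 had too few UMIs to be compared. The plot of member levels by class shows the blocks formed by alveolar, airway and endothelial cells.

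**Figure D1:**
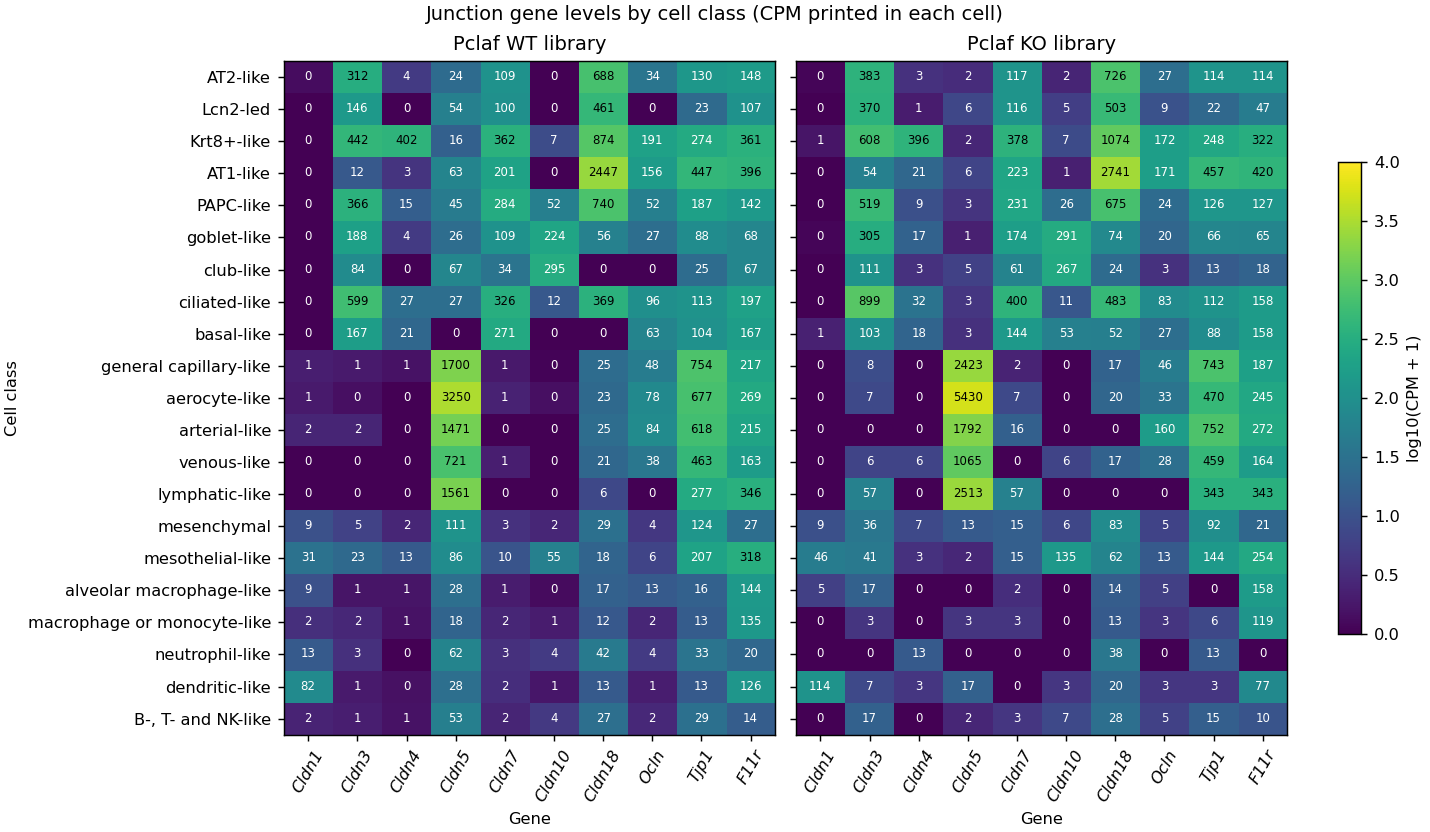
Level of each member (columns) in each cell class (rows of the plot) of the WT library (left) and the KO library (right), as colour on a log10(CPM + 1) scale, with the rounded CPM printed in each cell of the plot. The brightest Cldn18 cells are those of AT1-like cells, Cldn5 is bright in the endothelial classes and Cldn4 is brightest in Krt8+-like cells in both libraries.

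Cldn18, the claudin known for its lung isoform and its part in the alveolar barrier, had its highest level in AT1-like cells of both libraries. It was at 2447 CPM [2282 to 2621] in WT AT1-like cells and 2741 CPM [2661 to 2823] in KO AT1-like cells. Of the 77 WT and 301 KO AT1-like cells that were thinned, 79.2% and 82.4% had a UMI. AT2-like cells had 688 CPM [658 to 719] in WT and 726 CPM [719 to 734] in KO, with shares of 47.1% and 48.0%. The level was 1.83 log2 units [1.71 to 1.95] higher in AT1-like than in AT2-like cells in WT and 1.92 [1.87 to 1.96] in KO. With classes gated by markers the WT difference was 0.74 [0.66 to 0.83], short of 2-fold. The KO difference stayed between 1.57 and 2.02 over 19 alternative processings. Krt8+-like cells, an injury-related state between AT2 and AT1, had 874 CPM [819 to 932] in WT and 1074 CPM [1050 to 1098] in KO, above the AT2-like level. Their share of cells with a UMI was 34.3% and 37.5%, below that of AT2-like cells, so no order of these classes is read. The ratio also turned when all kept cells were clustered, to -0.62 in WT and -0.63 in KO. PAPC-like cells had 740 CPM in WT against 675 CPM in KO, Lcn2-led cells 461 and 503 CPM, and ciliated-like cells 369 and 483 CPM. Background was not negligible for this gene, since B-, T- and NK-like cells had 27.5 CPM in WT against 28.4 CPM in KO, with UMIs in 2.31% and 2.03% of them after thinning. The endothelial level, 23.8 CPM in WT against 16.1 CPM in KO, was no higher than that. Goblet-like cells had 56.2 and 74.5 CPM, and club-like cells had no Cldn18 UMI in WT and 24.1 CPM in KO.

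Cldn3, a sealing claudin of many epithelia, was highest in ciliated-like cells and low in AT1-like cells. It reached 599 CPM [548 to 653] in WT ciliated-like cells and 899 CPM [879 to 918] in KO ones. The Krt8+-like level was 442 CPM [403 to 484] in WT and 608 CPM [590 to 627] in KO, and AT2-like cells 312 CPM [292 to 333] and 383 CPM [378 to 389]. AT1-like cells had 12 CPM [3.27 to 30.7] from 4 UMIs in WT and 54.3 CPM [43.5 to 66.9] from 87 UMIs in KO. Cldn3 was thus lowest in the alveolar class with the highest Cldn18 level. The AT1-like over AT2-like log2 ratio of Cldn3 was -4.70 [-6.58 to -3.34] in WT and -2.82 [-3.14 to -2.52] in KO, and B-, T- and NK-like cells had 1.16 CPM in WT against 16.7 CPM in KO.

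Cldn4, a claudin of injured and stretched lung epithelium, separated Krt8+-like cells from AT2-like, Lcn2-led, PAPC-like and AT1-like cells. Krt8+-like cells had 402 CPM [365 to 442] in WT and 396 CPM [381 to 411] in KO, with UMIs in 25.1% and 24.7% of thinned cells. AT2-like cells had 3.83 CPM [1.91 to 6.86] and 2.76 CPM [2.30 to 3.27], Lcn2-led cells 0 and 1.02 CPM, PAPC-like cells 14.9 and 8.53 CPM, and AT1-like cells 3.00 and 20.6 CPM. The Krt8+-like over AT2-like log2 ratio was 6.71 [5.86 to 7.73] in WT and 7.17 [6.91 to 7.43] in KO, and it stayed between 5.49 and 8.21 in WT and between 6.29 and 7.96 in KO over 19 alternative processings. B-, T- and NK-like cells had 0.546 CPM in WT and none in KO. Outside the alveolus, ciliated-like cells had 27.3 and 32.2 CPM and the 46 KO neuroendocrine-like cells 138 CPM [104 to 178]. The WT library held only 7 neuroendocrine-like cells, with 1 Cldn4 UMI.

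Cldn7, a claudin of lateral as well as apical membranes, was spread over all epithelial classes. The Krt8+-like class had 362 CPM [327 to 399] in WT and 378 CPM [364 to 392] in KO, ciliated-like cells 326 CPM [289 to 367] and 400 CPM [387 to 413]. AT1-like cells had 201 CPM [156 to 255] and 223 CPM [201 to 248], and AT2-like cells 109 CPM [97.6 to 122] and 117 CPM [113 to 120]. Every one of these lay well above the B-, T- and NK-like levels of 1.57 CPM in WT against 3.34 CPM in KO. The Krt8+-like over AT2-like log2 ratio was 1.73 [1.51 to 1.94] and 1.70 [1.63 to 1.76]. The AT1-like over AT2-like ratio was 0.88 [0.47 to 1.26] and 0.94 [0.78 to 1.09], short of 2-fold in both libraries.

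**Figure D2:**
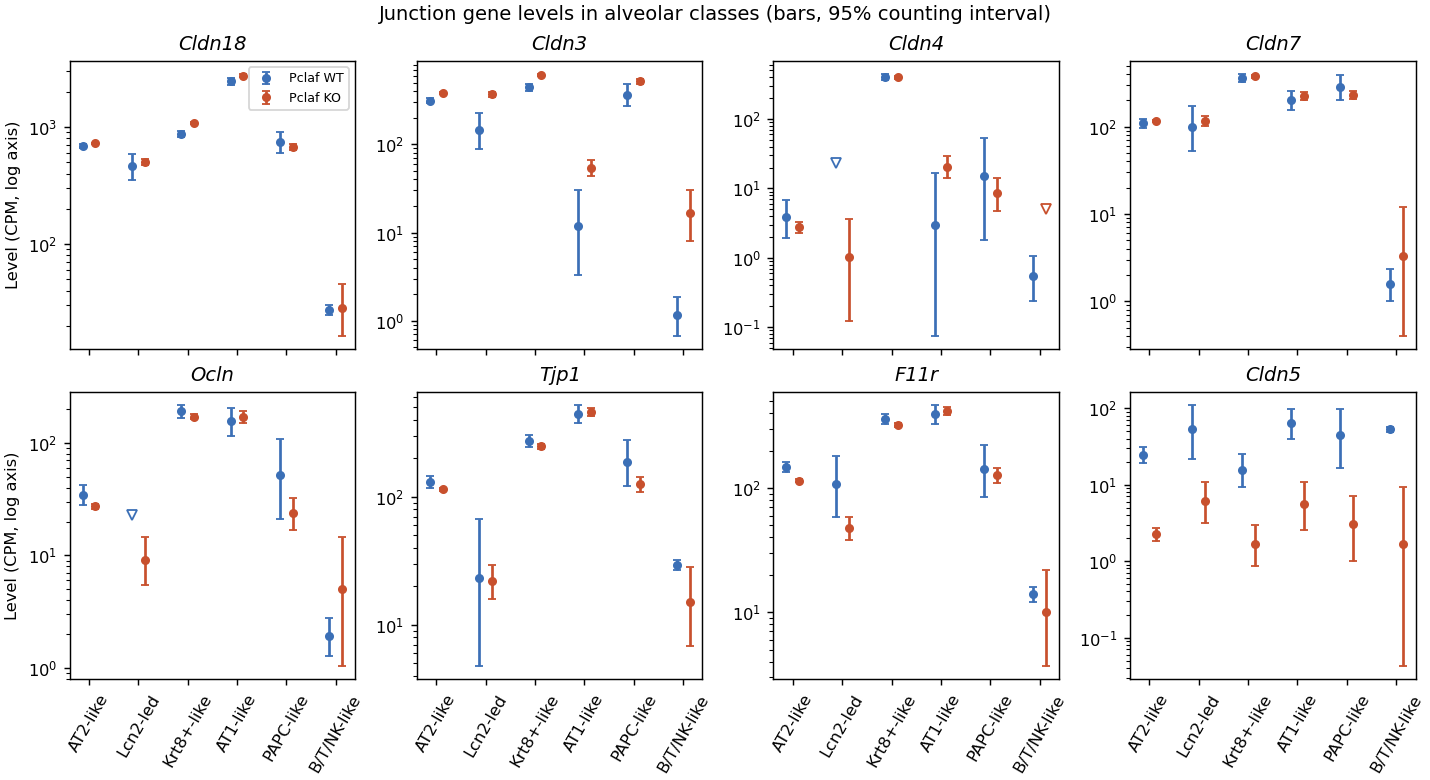
Level in CPM (log10 axis) of Cldn18, Cldn3, Cldn4, Cldn7, Ocln, Tjp1, F11r and Cldn5 in AT2-like, Lcn2-led, Krt8+-like, AT1-like, PAPC-like and B-, T- and NK-like cells of the WT (blue) and KO (red) libraries. Bars on the points are exact 95% Poisson intervals, an open triangle marks the level that 3 UMIs would give in a class with none, and Cldn4 stands near 400 CPM in Krt8+-like cells, at 402 CPM and 396 CPM, and at or under 20.6 CPM in the other classes with UMIs.

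The make-up of claudin UMIs in a class sums up these patterns, as shares of UMIs and not of molecules per length. In AT1-like cells Cldn18 gave 89.8% of the UMIs of the 7 claudins in WT and 90.0% in KO. In AT2-like cells it gave 60.4% and 58.9%, beside 27.4% and 31.1% from Cldn3 and 9.61% and 9.45% from Cldn7. Krt8+-like cells had the most mixed profile of these alveolar classes, with 41.6% and 43.6% from Cldn18, 21.0% and 24.7% from Cldn3, 19.1% and 16.1% from Cldn4 and 17.2% and 15.3% from Cldn7. The summed claudin level was 2726 CPM in WT AT1-like cells, 2103 CPM in Krt8+-like and 1138 CPM in AT2-like cells, and 3046, 2466 and 1233 CPM in KO. Krt8+-like cells had UMIs of 2 or more members in 57.5% of thinned WT cells and 60% of thinned KO cells, against 32% and 31.3% of AT2-like cells. The AT1-like shares, 58.4% and 61.5%, were close to those of Krt8+-like cells.

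**Figure D3:**
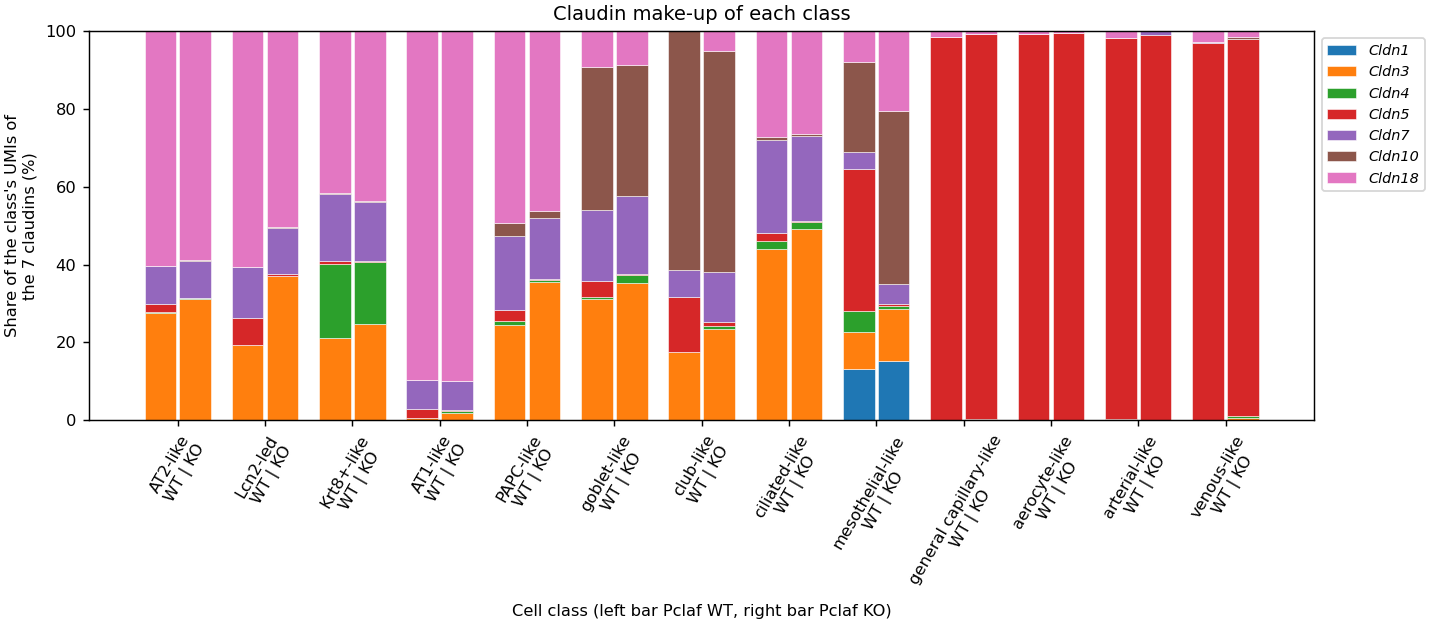
Share of the UMIs of the 7 claudins (percent, stacked bars) given by each claudin in 13 classes, with the WT library as the left and the KO library as the right bar of each pair. Cldn18 fills about the same part of the AT1-like bars in both libraries (89.8% and 90.0%), and Cldn5 fills nearly all of the endothelial bars.

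Counted over the alveolar classes, 5 of the 8 members with enough UMIs were called higher in Krt8+-like than in AT2-like cells of the WT library (Cldn4, Cldn7, Ocln, Tjp1 and F11r) and none lower, where 22.9% of all genes were called higher and 8.58% lower. In the KO library 6 of 9 were called higher (the 5 named and Cldn10) and none lower, against 33.1% and 6.61% of all genes. Between AT1-like and AT2-like cells of the WT library, 5 of 7 were called higher (Cldn5, Cldn18, Ocln, Tjp1 and F11r) and 1 lower (Cldn3), against 18.7% and 9.02% of all genes. In the KO library, 6 of 9 were called higher, with Cldn4 added, and Cldn3 lower, against 21.8% and 9.06%. Cldn5 belongs to this list with 21 UMIs in WT and 9 in KO AT1-like cells, at 63.0 CPM [39.0 to 96.3] and 5.61 CPM [2.57 to 10.7], beside 52.9 and 1.67 CPM in B-, T- and NK-like cells. Cldn10 in KO Krt8+-like cells stood at 7.25 CPM [5.42 to 9.51], beside 6.68 CPM [1.82 to 17.1] in KO B-, T- and NK-like cells. Lcn2-led cells were lower than AT2-like cells for Cldn3 and Tjp1 of 7 members in WT and higher for none, against 13.1% of all genes lower and 2.45% higher. In KO they were lower for Ocln, Tjp1 and F11r and higher for Cldn5 and Cldn10, of 9 members, against 40.6% lower and 2.21% higher. That Cldn10 level, 4.58 CPM from 9 UMIs, was below the 6.68 CPM of KO B-, T- and NK-like cells. A smaller share of Lcn2-led cells had enough UMIs to be thinned, 55 of 97 in WT and 595 of 665 in KO. Among AT2-like cells, 550 of 552 and 6277 of 6289 did. With 20 principal components, no member was called between Lcn2-led and AT2-like cells in either library. The part of low UMI counts per cell in the Lcn2-led calls was not tested.

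Among the airway classes, Cldn10, which forms ion-selective paracellular pores, marked secretory cells. Goblet-like cells had 224 CPM [196 to 254] in WT and 291 CPM [280 to 303] in KO, and club-like cells 295 CPM [205 to 410] and 267 CPM [244 to 292]. These classes did not differ beyond counting error in either library, with a club-like over goblet-like log2 ratio of 0.40 [-0.16 to 0.92] in WT and -0.13 [-0.27 to 0.01] in KO. Ciliated-like cells had 11.9 CPM in WT against 11 CPM in KO, 4.24 and 4.73 log2 units below goblet-like cells. AT2-like cells had no Cldn10 UMI in WT and 1.61 CPM in KO, where B-, T- and NK-like cells had 3.69 and 6.68 CPM. PAPC-like cells had 52.3 CPM from 7 UMIs in WT and 25.6 CPM from 42 UMIs in KO. Scgb1a1, one of the club markers, stood at 18151 and 36208 CPM in PAPC-like cells, against 391 and 2361 CPM in AT2-like cells. Sftpc, one of the AT2 markers, stood at 73062 and 104511 CPM in PAPC-like cells. The share of airway cells in this class was not tested. Outside the epithelium, mesothelial-like cells, the lining of the pleura, had 55.2 CPM [39.2 to 75.4] in WT and 135 CPM [114 to 159] in KO.

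Cldn10 gave 61.4% of claudin UMIs in WT club-like cells and 56.7% in KO ones, and 36.8% and 33.7% in goblet-like cells. Cldn3 gave 44.0% and 49.1% in ciliated-like cells. Compared with goblet-like cells, ciliated-like cells were higher for Cldn3, Cldn7, Cldn18, Ocln and F11r in both libraries and for Cldn4 in WT and Cldn5 in KO, and lower for Cldn10 in both, of 9 members. Over all genes 46.9% were called higher and 4.32% lower in WT, and 47.8% and 5.4% in KO, so the members' share higher is set beside a high background. Club-like cells were lower than goblet-like cells for Cldn3, Cldn7, Cldn18 and Tjp1 in both libraries and in KO also for Cldn4, Ocln and F11r, of 8 members, and higher for Cldn5 in WT. Over all genes 17.3% were called lower and 4.74% higher in WT, and 61.8% and 1.51% in KO, so the members' share lower in KO is also set beside a high background. The Cldn5 calls rested on 8 UMIs in WT club-like and 27 in WT goblet-like cells, and on 31 in KO ciliated-like and 10 in KO goblet-like cells. Cldn5 levels of B-, T- and NK-like cells are given below, and these calls are not read as expression.

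Cldn5, the claudin that seals endothelium, was the claudin of every endothelial class and gave 98.5% of claudin UMIs in WT endothelial cells and 98.9% in KO ones. Aerocyte-like cells, the large capillary cells that face the alveolar gas, had the highest level, 3250 CPM [3174 to 3327] in WT and 5430 CPM [5065 to 5815] in KO, with UMIs in 94.6% and 97.2% of thinned cells. General capillary-like cells had 1700 CPM [1675 to 1725] and 2423 CPM [2305 to 2545], and venous-like cells the lowest, 721 CPM [681 to 763] and 1065 CPM [919 to 1229]. The order from aerocyte-like over general capillary-like to venous-like cells was the same in both libraries. The aerocyte-like over general capillary-like log2 ratio was 0.93 [0.89 to 0.97] in WT and 1.16 [1.04 to 1.29] in KO, and the venous-like over general capillary-like ratio -1.24 [-1.32 to -1.15] and -1.19 [-1.41 to -0.97]. Arterial-like cells had 1471 and 1792 CPM, and the 64 WT and 8 KO lymphatic-like cells 1561 and 2513 CPM. The lymphatic-like and general capillary-like levels did not differ beyond counting error. The call for Cldn5 between aerocyte-like and general capillary-like cells was made in KO only, against 12.9% of all genes there, and the WT ratio stopped short of 2-fold, where 11% of genes were called. The lower level of venous-like cells was called in both libraries, against 9.73% of all genes in WT and 10.6% in KO.

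**Figure D4:**
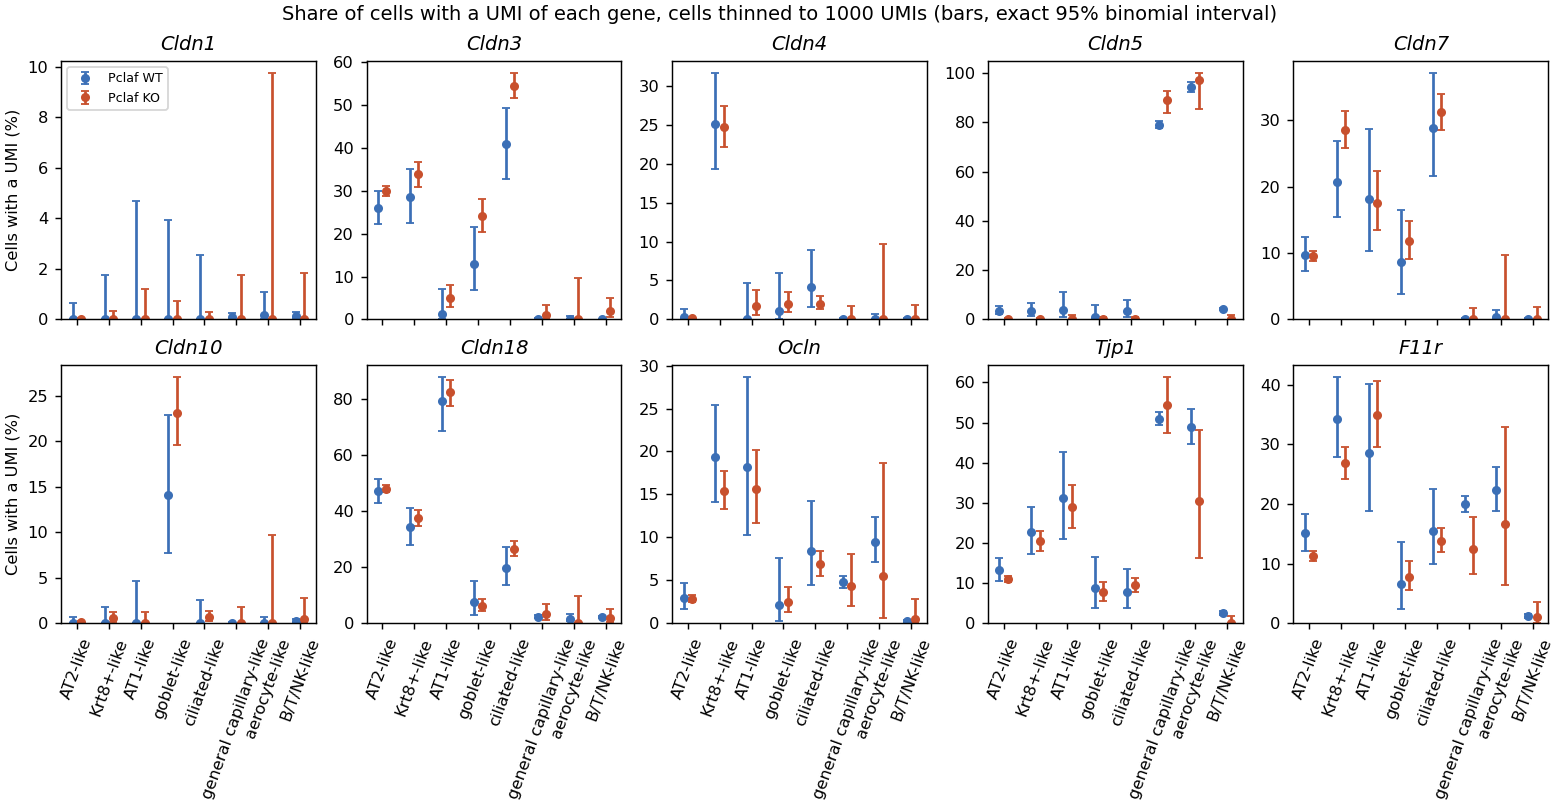
Share of cells (percent) with at least 1 UMI of each member after thinning to 1000 UMIs, in 8 classes of the WT (blue) and KO (red) libraries. Cells with fewer than 1000 UMIs were left out. Bars are exact 95% binomial intervals, and each gene has a separate axis range. Cldn5 reached 94.6% and 97.2% of aerocyte-like cells, and Cldn18 79.2% and 82.4% of AT1-like cells.

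Cldn1, a claudin of skin and airway barriers, was close to absent from epithelium in these libraries. It had 1 UMI in all WT epithelial cells and 13 in all KO ones. Dendritic-like cells had the highest level, 81.8 CPM [75.7 to 88.2] from 671 UMIs in WT and 114 CPM [79.0 to 159] from 34 UMIs in KO, with UMIs in 7.58% and 10% of thinned cells. Mesothelial-like cells followed with 31.1 CPM [19.5 to 47.1] and 46.0 CPM [34.2 to 60.5]. The B-, T- and NK-like level was 1.5 CPM in WT, with no UMI in KO.

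Ocln encodes occludin, a membrane protein of the junction strand, and its levels were highest in Krt8+-like and AT1-like cells among the epithelial classes. Krt8+-like cells had 191 CPM [166 to 219] in WT and 172 CPM [162 to 181] in KO, and AT1-like cells 156 CPM [116 to 205] and 171 CPM [151 to 192]. These levels did not differ beyond counting error, with a Krt8+-like over AT1-like log2 ratio of 0.30 [-0.15 to 0.76] in WT and 0.01 [-0.18 to 0.20] in KO. AT2-like cells had 34.5 CPM [28.0 to 42] and 27.3 CPM [25.8 to 28.8], 2.47 and 2.65 log2 units below Krt8+-like cells. Endothelial cells had 53.3 CPM [49.8 to 57.1] in WT and 47.2 CPM [35.0 to 62.3] in KO, far above the 1.91 and 5.01 CPM of B-, T- and NK-like cells. Arterial-like cells had 84.2 CPM in WT against 160 CPM in KO, the latter from 10 UMIs. No Ocln UMI was found in the 64 WT lymphatic-like cells, where 3 UMIs would give 18.9 CPM.

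Tjp1 encodes ZO-1, the scaffold that links the strands to actin, and it was higher in endothelium than in epithelium. General capillary-like cells had 754 CPM [737 to 771] in WT and 743 CPM [678 to 812] in KO, and aerocyte-like cells 677 CPM [642 to 712] and 470 CPM [367 to 593]. AT1-like cells were the highest of the epithelial classes with 447 CPM [378 to 525] and 457 CPM [425 to 492]. Krt8+-like cells had 274 and 248 CPM and AT2-like cells 130 and 114 CPM. ZO-1 transcripts were also found in mesenchymal cells, at 124 CPM in WT against 92.4 CPM in KO, above the B-, T- and NK-like levels of 29.3 and 15.0 CPM.

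F11r encodes JAM-A, a junctional adhesion molecule also carried by leukocytes and platelets, and it was the member spread most widely. AT1-like cells had 396 CPM [331 to 469] in WT and 420 CPM [389 to 453] in KO, Krt8+-like cells 361 and 322 CPM, mesothelial-like cells 318 and 254 CPM, endothelial cells 220 and 199 CPM, and AT2-like cells 148 and 114 CPM. Among immune cells, the alveolar macrophage-like class had 144 and 158 CPM and the macrophage or monocyte-like class 135 and 119 CPM, against 13.9 and 10.0 CPM in B-, T- and NK-like cells. Dendritic-like cells had 126 and 77.2 CPM, and neutrophil-like cells 20.5 CPM from 32 UMIs in WT and no UMI in 41 KO cells. The macrophage levels were close to that of AT2-like cells, and the WT neutrophil-like level was far below it.

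Between the libraries, most members of AT2-like and Krt8+-like cells differed by less than 2-fold. In AT2-like cells 1 of the 9 members with enough UMIs was called, Cldn5, which was lower in KO, where 4.67% of all genes were called in either direction. The others, apart from Cldn10, ran from -0.47 [-1.36 to 0.56] for Cldn4 to 0.30 [0.20 to 0.39] for Cldn3 on the log2 scale of KO over WT. Cldn10 had no UMI in WT AT2-like cells, and its KO level was below that of KO B-, T- and NK-like cells and is not read as expression. In Krt8+-like cells the only call was again Cldn5, of 9 members, against 4.55% of all genes. Cldn4 differed there by -0.02 [-0.17 to 0.13], Cldn18 by 0.30 [0.20 to 0.40] and Cldn3 by 0.46 [0.32 to 0.60]. No member was called in PAPC-like cells, where 4.65% of all genes were, and the 7 members with enough UMIs rest on 7 to 99 UMIs each in the 25 WT cells there.

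In AT1-like cells 3 of 8 members were called, against 4.72% of all genes. Cldn18 differed by 0.16 [0.06 to 0.27] and was not called. With classes gated by markers, which gave 1055 WT and 783 KO AT1-like cells, Cldn18 differed by 1.21 [1.14 to 1.28] and was called. Cldn3 was 2.18 [0.77 to 4.09] higher in KO and Cldn4 2.78 [0.20 to 8.13] higher, from 4 and 1 UMIs in WT, and Cldn5 was lower. The AT1-like class joins 2 clusters, of which 1 held 112 of the 155 WT cells and 170 of the 359 KO cells, and 61 of the 87 KO Cldn3 UMIs came from it, at 185 CPM [142 to 238]. In the other cluster Cldn3 stood at 17.7 CPM in WT against 20.4 CPM in KO. The 7 AT2 markers, all detected, summed to 3524 CPM in WT AT1-like cells and 9464 CPM in KO ones, and their part in the Cldn3 difference was not tested. The Cldn3 difference was 0.21 at a clustering resolution of 0.4, and the Cldn4 difference was 0.19 at a resolution of 1.2.

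In Lcn2-led cells, which numbered 97 in WT and 665 in KO, Cldn3 was 1.34 [0.69 to 2.08] higher in KO and F11r 1.18 log2 units lower (KO over WT -1.18 [-2.0 to -0.26]), against 9.62% of all genes called. With 20 principal components, which drew more cells into this class, these differences were 0.53 and -0.21. In goblet-like cells Cldn4 was 2.18 [0.80 to 4.08] higher in KO from 4 WT UMIs and Cldn5 lower, against 4.82% of all genes. The Cldn4 difference there was 0.11 when all kept cells were clustered. In club-like cells F11r was lower in KO, at -1.90 [-3.04 to -0.57], against 9.11%. With TMM factors, which scale the classes on most of their genes, F11r was no longer called there, at -0.86 [-2.0 to 0.47], and Cldn3 and Cldn7 were called higher instead, at 1.44 and 1.91. F11r was not called with at least 500 genes per cell either, at -1.30. In ciliated-like cells Cldn5 alone was called, against 3.41%, and Cldn3 was 0.59 [0.46 to 0.72] higher without reaching 2-fold. Cldn3 had a higher level in the KO library in AT2-like, Lcn2-led, Krt8+-like, AT1-like, PAPC-like, goblet-like, club-like and ciliated-like cells. It was called only in Lcn2-led and AT1-like cells, and differed by 0.50 in PAPC-like and 0.39 in club-like cells, which held few WT cells. The same gene stood at 1.16 CPM in WT and at 16.7 CPM in KO B-, T- and NK-like cells.

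**Figure D5:**
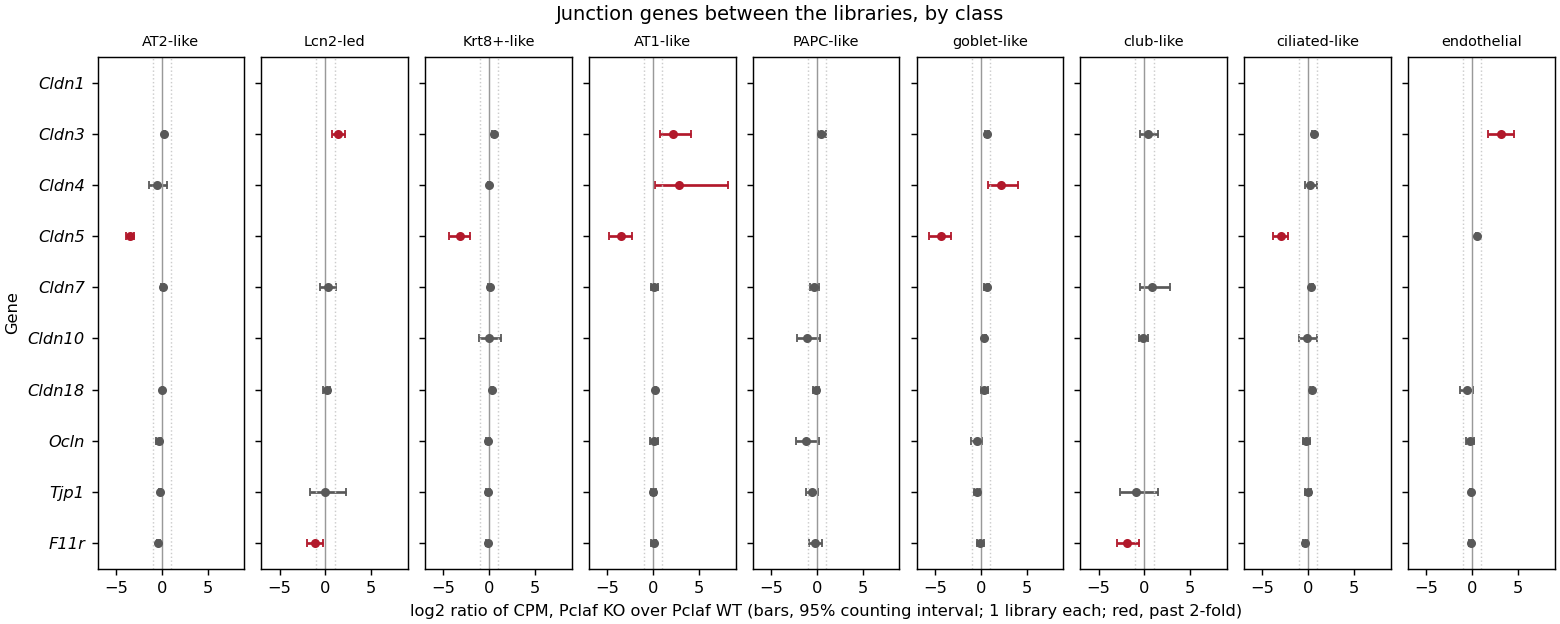
Log2 ratio of KO over WT levels of each member with enough UMIs, and with UMIs in both libraries, in 8 epithelial classes and in endothelial cells, with exact 95% counting intervals and dotted lines at 2-fold. Red points are called differences, and Cldn5 lies between -4.38 and -3.03 in the epithelial classes that called it and at 0.53 in endothelial cells.

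Cldn5 was the member with the widest difference between the libraries, and its direction depended on the cells. In epithelium its KO over WT log2 ratio was -3.44 [-3.89 to -2.98] in AT2-like, -3.23 [-4.43 to -2.08] in Krt8+-like, -3.49 [-4.80 to -2.30] in AT1-like, -4.38 [-5.59 to -3.29] in goblet-like and -3.03 [-3.86 to -2.19] in ciliated-like cells. The levels behind these ratios were low, with 24.4 CPM in WT against 2.25 CPM in KO AT2-like cells, beside 52.9 and 1.67 CPM in B-, T- and NK-like cells. After thinning, 4.26% of WT B-, T- and NK-like cells had a Cldn5 UMI, and 0 of 197 in KO [0 to 1.86%]. In WT the levels of AT2-like, Krt8+-like, goblet-like and ciliated-like cells, and their shares of cells with a UMI, lay below those of B-, T- and NK-like cells and are not read as expression. In KO the levels of AT2-like, ciliated-like, AT1-like and Lcn2-led cells, 2.25, 3.34, 5.61 and 6.10 CPM, lay above 1.67 CPM, a level that rests on 1 UMI and has an interval of 0.0423 to 9.30 CPM.

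The 8 pan-endothelial markers moved with Cldn5 in the same cells. In AT2-like cells all 8 were detected in both libraries, and they summed to 159 CPM [144 to 174] in WT and 25.4 CPM [24.0 to 26.9] in KO. In AT1-like cells they summed to 372 CPM in WT against 31.8 CPM in KO, and in mesenchymal cells to 669 and 46.9 CPM. WT AT2-like cells had 15.4 Cldn5 UMIs per 100 UMIs of the list, and WT general capillary-like cells had 15.8. In KO AT2-like cells there were 8.84, and in KO general capillary-like cells 25.4. How much of the epithelial Cldn5 came with other endothelial RNA was not tested.

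In endothelial cells themselves Cldn5 was 0.53 [0.48 to 0.59] higher in KO, a difference larger than counting error but short of 2-fold. It was higher in KO in general capillary-like cells by 0.51 [0.44 to 0.59], in aerocyte-like cells by 0.74 [0.63 to 0.85] and in venous-like cells by 0.56 [0.33 to 0.79]. In arterial-like cells the difference was 0.28, with an interval that reached 0. The endothelial value stayed between 0.52 and 0.79 over 20 alternative processings. Pecam1 was lower in KO endothelial cells, at 1339 CPM against 1525 CPM in WT, and the 8 pan-endothelial markers summed to 9543 CPM in KO general capillary-like cells and 10756 CPM in WT ones. The KO endothelium comprised 336 cells left after the sort for epithelium, and genotype and library cannot be told apart.

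The only member called between libraries in endothelial cells was Cldn3, against 4.25% of all genes, 3.17 [1.70 to 4.55] higher in KO from 13 UMIs in WT and 8 in KO. Its endothelial levels, 0.837 and 7.56 CPM, were below those of B-, T- and NK-like cells, 1.16 and 16.7 CPM, and are not read as expression. How much of them was free RNA was not tested. No member was called in general capillary-like, aerocyte-like, arterial-like or venous-like cells, where 4.06%, 4.22%, 3.09% and 4.35% of all genes were. Ocln in aerocyte-like cells was at -1.24, past 2-fold but with an interval that reached 0. It ran from -1.41 to -0.63 over 19 alternatives, of which 13 left it uncalled and the rest called it lower in KO. Tjp1 differed by -0.10 [-0.21 to 0.01], F11r by -0.14 [-0.35 to 0.06] and Ocln by -0.18 [-0.62 to 0.24] in endothelial cells.

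Outside both lineages, 6 of 10 members were called in mesenchymal cells, against 13.6% of all genes. The 5 epithelial claudins were higher in KO, from 1.51 [1.34 to 1.68] for Cldn18 to 2.80 [2.43 to 3.20] for Cldn3, and Cldn5 was lower at -3.15 [-3.38 to -2.94]. The highest of these levels was 82.9 CPM for Cldn18 in KO, and the 7 AT2 markers summed to 1327 CPM in WT against 13944 CPM in KO mesenchymal cells. Their part in the claudin differences was not tested, and without the cells in the highest 10% of doublet scores the Cldn18 difference turned to -0.42 and that of Cldn10 was 0.13 [-0.79 to 1.08]. The mesenchymal class joins 3 clusters, of which 1 held 44.3% of its WT and 76.0% of its KO cells and another 40.1% and 14.4%. In mesothelial-like cells Cldn10 was 1.29 [0.78 to 1.84] higher in KO, Cldn18 1.76 [0.89 to 2.74] higher and Cldn5 lower at -5.58 [-8.66 to -3.67], against 8.32% of all genes. With the drawn KO cells alone, the Cldn10 difference was 0.03 and that of Cldn18 was 0.83 [-0.73 to 2.26]. The Cldn18 call was lost in 4 of 20 alternatives.

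The wider list of 47 tight junction genes, of which 46 were in the matrices, was read by its parts, beside the 22.2% of all genes higher and 19.7% lower in WT epithelium and 13.4% and 17.7% in KO. Of the 20 other claudins, 5 had enough UMIs in WT, of which Cldn8 and Cldn23 were called higher in epithelium and Cldn34c1 lower. In KO 9 had enough, of which Cldn12 was called higher and Cldn34c1 lower. Cldn8 and Cldn23 were not called in KO, with 298 and 343 UMIs in epithelium and 0 in endothelium. With 336 KO endothelial cells, the floor of 3 UMIs kept their ratios under 2-fold. Of the MARVEL and tricellular proteins, which close the corners where several cells meet, 4 of 5 were called higher in epithelial than endothelial cells in each library. Of the scaffolds and plaque proteins, 6 of 10 were higher and 2 lower in each, and of the other junctional adhesion molecules 1 of 4 was higher and 3 lower. Of the polarity genes, 5 of 7 were higher in WT, and 4 higher and 1 lower in KO. The genes of the list with the most UMIs, which do not compare expression between genes, were in epithelium Magi3 with 336 CPM in WT against 305 CPM in KO, Pard3 with 276 and 293 CPM and Magi1 with 272 and 258 CPM, which encode scaffold and polarity proteins. Among those with the most UMIs in WT endothelium were Esam, an endothelial adhesion molecule, with 629 CPM and Pard3 with 248 CPM.

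Between the libraries few of these genes were called. Over all genes, 4.67% were called in AT2-like cells, 4.55% in Krt8+-like, 4.72% in AT1-like and 4.25% in endothelial cells. In AT2-like cells Cldn8 was 2.63 [0.12 to 7.95] higher in KO from 1 UMI in WT, and Jam2 was at -2.45 [-3.99 to -0.64]. Jam2 stood at 1.74 and 0.318 CPM in these cells, against 150 and 162 CPM in endothelial cells, and the 8 pan-endothelial markers summed to 159 and 25.4 CPM in AT2-like cells. Their part in the Jam2 difference was not tested. In Krt8+-like cells Ildr2 was at -1.82 [-3.15 to -0.38] from 8 UMIs in WT and 15 in KO, and in AT1-like cells none was called. Ildr2 stood at 7.40 and 2.09 CPM in Krt8+-like cells, against 48.8 and 41.3 CPM in mesenchymal cells. In endothelial cells Cxadr was 2.20 [0.39 to 3.71] higher in KO from 5 KO UMIs and Pard6a 1.27 [0.34 to 2.10] higher. Cxadr stood at 1.03 and 4.72 CPM in endothelial cells, against 148 and 122 CPM in epithelial cells. How much of the endothelial Cxadr or the Krt8+-like Ildr2 was free RNA was not tested. All 10 scaffolds and plaque proteins were tested in AT2-like and in Krt8+-like cells and none was called, with median log2 ratios of -0.12 and -0.17, beside -0.15 and -0.04 over all genes tested. At the shares called over all genes, few or none of 10 genes would be called.

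Genes with the most similar level pattern were sought over the 47 class and library points with enough UMIs, which share libraries, depth and class borders, so the correlations are descriptions. Cldn5 was closest to Cdh5, which encodes the endothelial cadherin, with r = 0.989, followed by Ramp2 and Egfl7. Cldn7 was closest to the simple epithelial keratins Krt8 (r = 0.947) and Krt18 (r = 0.940), and Cldn3 to Wfdc2 (r = 0.925). Cldn4 was close to Ly6g6c (r = 0.90) and Sprr1a (r = 0.820), and Cldn18 to Ap1m2 (r = 0.881). Tjp1 was closest to Epn2 (r = 0.95), Ocln to Shroom4 (r = 0.876), F11r to Twf1 (r = 0.861), Cldn1 to Hrh1 (r = 0.871) and Cldn10 to Gsta2 (r = 0.822). Among the members, Cldn3 and Cldn7 were alike with r = 0.917. Krt8, Krt18, Cdh5 and Egfl7 are also among the markers that named classes.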

How the data were processed

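The deposited matrices of the 2 10x libraries hold unnormalized UMI counts, with 1 value for each barcode and gene. The file headers name Cell Ranger 5.0.0, whereas the submitters' processing notes name Cell Ranger 3.1.0 and STAR, and both sources use GRCm38. The 10 members and all lists were chosen with earlier results of these data known. Barcodes with more than 200 and fewer than 5000 genes and under 20% mitochondrial UMIs were kept. Cells were clustered in Seurat 5.3.0 (R 4.3.3) with 2000 variable genes, 10 principal components and a resolution of 0.8 on all WT and 1 in 6 KO cells, and the other KO cells were placed by their 20 nearest neighbours. Epithelial cells were reclustered over 4 rounds. A cluster was named with at least 3 markers at least 1 log2 unit higher. Clusters within a lineage that scored best for another lineage's markers (4635 WT and 695 KO cells) were left out. So were clusters that stayed unnamed (4243 and 261), apart from the Lcn2-led cluster. Among these, 3 endothelial clusters held 1049, 875 and 195 WT and 41, 72 and 8 KO cells. The endothelial classes held 5723 WT and 336 KO cells. The largest cluster set aside from epithelium held 431 WT and 374 KO cells, beside 1358 and 10863 cells in the epithelial classes. The libraries were therefore not filtered equally, and the effect on ratios between them was not tested. Scrublet, in scanpy 1.11.5, marked no doublet among 30187 WT and 15637 KO cells and so did not work here. Summed counts per class were scaled to CPM with exact Poisson intervals, and log2 ratios took the exact conditional interval of 2 Poisson counts. Groups with 0 UMIs were set to a floor of 3. Named genes were all members, called genes of the wider list (up to 3 per direction), its 3 highest genes in epithelium and endothelium, and the 3 genes closest to each member by Pearson correlation of log2(CPM + 10). Some genes that this rule names are not reported here. edgeR 4.0.16 gave TMM factors for 1 alternative only. The calling step recovered planted changes in simulated data drawn as Poisson counts, the model that its interval assumes. Those data held no variation between cells, mice or libraries, so they do not check calls between the libraries. Every column of values belonged to a mapped sample. The counting floor and intervals do not cover variation between mice.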

Additional observations from a re-analysis of the deposited data

Results flagged for a closer look

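The KO over WT log2 ratio of Cldn5 had opposite signs in different cells. It was -3.44 in AT2-like, -3.23 in Krt8+-like, -3.49 in AT1-like, -4.38 in goblet-like, -3.03 in ciliated-like, -3.15 in mesenchymal and -5.58 in mesothelial-like cells, and 0.53 in endothelial cells. In WT AT2-like, Krt8+-like, goblet-like and ciliated-like cells the Cldn5 levels lay below those of B-, T- and NK-like cells. The 8 pan-endothelial markers also differed between the libraries in AT2-like cells, with 159 CPM in WT and 25.4 CPM in KO. Their part in the Cldn5 ratios was not tested. With 1 library per genotype, the difference between the classes listed was not tested either. Cells outside the classes also held members. The 4635 WT and 695 KO cells set aside for another lineage's markers had 1377 and 1312 CPM of summed members. Cldn5 stood at 665 and 206 CPM in them, and Cldn18 at 150 and 490 CPM. The 261 KO cells of unnamed clusters had 913 CPM of summed members [822 to 1012], of which Cldn5 gave 606 CPM, above the 716 CPM of the 4243 WT cells left out in the same way. The 303 KO cells over the upper limit of genes had 1875 CPM [1843 to 1908], led by Cldn18 with 531 CPM and Cldn3 with 501 CPM, and the 99 such WT cells had 979 CPM, led by Cldn5 with 349 CPM. The share of doublets among them was not tested.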

How the results depend on the processing

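The counts of members called between genotypes are small, and many moved when a class was drawn or filtered another way. Over all comparisons between genotypes 21 calls were made, between 7 and 29 under the alternatives. The count was 7 when cells were thinned to 1000 UMIs and those with fewer were left out. The 14 calls between epithelium and endothelium became 14 to 15, and the 31 calls between alveolar classes 23 to 33. In the main processing the counts between genotypes were 1 in AT2-like, 2 in Lcn2-led, 1 in Krt8+-like, 3 in AT1-like and 0 in PAPC-like cells. They were 2 in goblet-like, 1 in club-like and 1 in ciliated-like cells. Outside the epithelium they were 1 in endothelial, 6 in mesenchymal and 3 in mesothelial-like cells. General capillary-like, aerocyte-like, arterial-like and venous-like cells had 0. The shares called over all genes, given above for the main processing, were not computed for the alternatives. The counts under the alternatives therefore have no background beside them. With a mitochondrial limit of 10% the endothelial count was 0, and with no upper gene limit it was 2. With at least 500 genes per cell, 1 was called in Lcn2-led, 0 in club-like and 1 in aerocyte-like cells. Without the highest 10% of Scrublet scores, an alternative chosen after seeing the data because no cell had been marked a doublet, 2 were called in AT2-like and 0 in endothelial cells. A second draw of KO cells gave 1 in aerocyte-like cells. With the drawn KO cells alone, 0 were called in Krt8+-like, 0 in club-like and 0 in endothelial cells, and 3 between Lcn2-led and AT2-like cells in KO. With all kept cells clustered, 4 were called in Lcn2-led, 1 in AT1-like, 1 in goblet-like, 1 in aerocyte-like and 6 in mesothelial-like cells. With 20 principal components, 1 was called in Lcn2-led, 1 in AT1-like, 0 in endothelial, 1 in aerocyte-like and 5 in mesothelial-like cells, and 0 between Lcn2-led and AT2-like cells in WT and 0 in KO. A resolution of 0.4 gave 4 in Lcn2-led, 1 in AT1-like, 1 in PAPC-like, 1 in general capillary-like and 1 in aerocyte-like cells. Classes gated by markers gave 3 in AT2-like, 2 in Krt8+-like, 7 in AT1-like, 2 in PAPC-like, 1 in goblet-like, 3 in club-like, 2 in ciliated-like and 0 in endothelial cells. TMM factors gave 1 in Lcn2-led, 2 in club-like and 1 in aerocyte-like cells. Thinning gave 0 in Krt8+-like, AT1-like, goblet-like, club-like, ciliated-like, endothelial and mesothelial-like cells, and 3 between Lcn2-led and AT2-like cells in KO. A minimum of 10 UMIs, and likewise no minimum above 1 UMI, gave 1 in PAPC-like, 2 in club-like, 2 in endothelial and 1 in general capillary-like cells. A minimum of 50 UMIs gave 0 in Krt8+-like, 1 in AT1-like, 1 in goblet-like, 0 in club-like and 0 in endothelial cells. Without thinning, 13 of 20 pairs of member and library had the same class with the highest share of cells.

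In 8 instances a single log2 ratio that was called, in the main processing or under the alternative, changed sign, and ratios called under neither changed sign more often. Cldn18 in mesenchymal cells, KO over WT, was -0.42 without the highest 10% of Scrublet scores, -0.20 with the second draw and -0.39 with the marker gate. Cldn5 in AT1-like over AT2-like KO cells was -0.48 without that share of scores and -0.50 as a mean over cells. Cldn10 was -0.0078 in Lcn2-led over AT2-like KO cells with 20 principal components, 1.02 in Krt8+-like cells, KO over WT, with the marker gate, and 1.07 in AT1-like over AT2-like KO cells with that gate. The causes were not tested. A class with few WT cells, such as 25 PAPC-like or 97 Lcn2-led cells, limits what its counts can show. No paired analysis was possible because each genotype has 1 library.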
